A study of Mus musculus with 12 samples.

Results

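The comparison is of regulatory T cells (Treg) from mice given the stapled peptide SAH-FOXP3(229-259)C, written SAH here, with Treg from mice given vehicle. It takes the 6 Treg libraries of the 12 libraries in the series, chosen by their labels, and covers every gene of the Treg table. The other 6 libraries hold conventional T cells (Tcon) from the same treatments and are used only where the SAH effect is compared between cell types. The mice received intraperitoneal injections on 2 days, 1 a day, of 25 mg/kg SAH or of vehicle, and the titles of the vehicle libraries name DMSO. All groups share the genotype B6.Cg-Foxp3tm2Tch/J, a reporter line (FOXP3-IRES-GFP) in which the Foxp3 transcript also encodes GFP, so the vehicle groups carry that allele too. Ages and sexes are not in the labels, and no control peptide is named in the labels. The peptide was given to whole mice, so every cell type of the host was exposed. In lymph node, vehicle is library 01 and SAH is libraries 02 and 03. In spleen, vehicle is library 04 and SAH is libraries 05 and 06. The labels give the Treg as CD4+CD25+FOXP3+ cells, and 11 of 14 markers that define Treg and T cells were listed in the table (Trac, Trbc1 and Trbc2 were not).

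FOXP3 is the forkhead transcription factor that sets and keeps the identity of Treg, the CD4+ T cells that restrain immune responses. It works as a dimer and in complexes with partner factors, sustaining genes such as Il2ra and Ctla4 and holding down genes such as those of effector cytokines. Stapling links side chains of a short peptide so that it keeps the helix it forms in the parent protein, and the series title gives inhibition of FOXP3 as the purpose of such peptides. Many of the chaperone genes described below are controlled by heat shock factors, which bind repeats of the short sequence GAA in alternating orientation.

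With SAH, Treg of both organs held more RNA of the stress-inducible chaperones Hspa1b and Hspa1a (HSP70), Hsph1 (HSP110) and Dnajb1 (HSP40). The same held for Hspa1l, an HSP70 gene whose reads may be misplaced from Hspa1a. They also held more of Itgae, S100a6, S100a4, Anxa2 and Lgals1, which stand in the list of effector and tissue Treg genes. They held less RNA of Cpt1a and Slc25a20, a pair that brings long-chain fatty acids into mitochondria, and of the transporter gene Slc15a2. Of 10405 genes, 21 passed the test at an adjusted p below 0.05 (0.202%), 14 of them higher with SAH (0.135%) and 7 lower (0.0673%). By size, 9 of the 21 differed by over 1.5-fold and 3 by over 2-fold. These are folds of CPM + 1, which understate changes of low genes such as Cfap74. For all 21, the 4 SAH libraries lay on the same side of the vehicle library of their own organ, which held for 25.2% of all genes. In 13 of the 21, the 4 SAH libraries lay outside the range of both vehicle libraries together, against 10% of all genes. Across all genes 76.1% of log2 changes were within 0.1 of 0, and the median standard error of a change was 0.0691 on the log2 scale. RNA of sorted bulk cells was measured, so fewer cells of a type and less RNA per cell cannot be told apart.

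Library depth was even, at 40061754 to 45320889 reads in the listed genes, and correlations between the 6 libraries were at least 0.9848. Nothing in the labels ties a library to a mouse, so each p-value measures the spread between these libraries only, which may be technical. Lymph node and spleen libraries may come from the same mice, so the same direction in both organs is not known to be separate replication. Library 06 stood apart in red cell genes: Slc4a1, the anion exchanger of red cells, was at 109.7 CPM there against 12.1 CPM and 8.41 CPM in spleen libraries 04 and 05, and Alas2, of heme synthesis, was at 28.8 CPM against 4.18 CPM and 2.31 CPM. Without library 06, all of the 21 genes still passed among 95 that did. Without library 05, all 21 passed among 56. Leaving out library 01, which leaves the effect to spleen, gave 7 genes, and leaving out library 04, which leaves it to lymph node, gave 18, of which 9 were among the 21. Without library 02 or 03, 8 and 9 genes passed, all among the 21. Hspa1a, Hspa1b, Hspa1l, Cpt1a and Slc15a2 passed whichever of the 6 libraries was left out. These genes, with Cdk5rap1 and Selp, were the 7 that still passed when the model had no intensity trend.

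The promoters of 3 of the chaperone genes that rose are shown because heat shock factors bind such sequences. Each line gives the 250 bases before the gene start, read in the direction of the gene, from RefSeq's annotation of GRCm38.p6, the assembly of mm10. Capitals mark a pair of inverted GAA units, either GAANNTTC or TTCNNGAA, both of which read the same on both strands.

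Hspa1a, chr17:34972157-34972406, minus strand: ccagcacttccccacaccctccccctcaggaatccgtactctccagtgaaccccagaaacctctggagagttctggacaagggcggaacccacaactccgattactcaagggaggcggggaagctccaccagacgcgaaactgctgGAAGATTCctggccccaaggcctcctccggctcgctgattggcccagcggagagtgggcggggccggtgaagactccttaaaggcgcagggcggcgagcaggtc

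Hspa1b, chr17:34959239-34959488, minus strand: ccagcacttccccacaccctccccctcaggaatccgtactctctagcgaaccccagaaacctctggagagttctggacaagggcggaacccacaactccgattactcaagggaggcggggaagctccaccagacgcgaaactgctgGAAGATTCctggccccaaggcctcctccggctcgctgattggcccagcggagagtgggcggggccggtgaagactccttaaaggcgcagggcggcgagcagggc

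Hsph1, chr5:149636337-149636586, minus strand: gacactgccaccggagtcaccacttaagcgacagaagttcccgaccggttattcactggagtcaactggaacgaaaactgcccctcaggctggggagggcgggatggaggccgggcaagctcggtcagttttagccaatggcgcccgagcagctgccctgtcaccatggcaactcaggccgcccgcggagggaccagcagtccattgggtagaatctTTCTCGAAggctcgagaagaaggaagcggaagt

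The Hspa1a and Hspa1b sequences differ at 3 of 250 bases, and in both the pair spans bases 104 to 97 before the start. In Hsph1, which has a second annotated start not shown, it spans bases 33 to 26 before the first. Of the 21 genes, 17 have a window in the table and 4 of them hold a pair, the fourth being S100a6. Among all 27025 genes with a window, 14.5% hold one. The windows of Hspa1l and Dnajb1 do not contain these letters. TGTTTAC, a core that forkhead factors bind, searched on both strands, is in the windows of 0 of the 17 genes and of 3.54% of all genes. Matches are descriptions of these letters, not sites of binding.

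Among the chaperones, the largest changes were in 3 HSP70 genes that lie side by side on chromosome 17. HSP70 proteins bind unfolded stretches of other proteins and release them in cycles of ATP hydrolysis. Hspa1b (34956436 to 34959238 on chromosome 17) was at 26.6 CPM in lymph node vehicle with 94.5 and 80.4 CPM in SAH, and at 79.8 CPM in spleen vehicle and 287 and 279.7 CPM in spleen SAH. The groups did not overlap, although the lymph node SAH library 03 lay just above the spleen vehicle library. The rise was 3.35-fold (95% interval 3.05 to 3.69, adjusted p = 2.08e-09). Hspa1a (34969190 to 34972156) was at 21.5 CPM in lymph node vehicle with 78.6 and 63.4 CPM in SAH, and at 62.1 CPM in spleen vehicle with 233 and 229 CPM in SAH. Here too the lymph node libraries of SAH reached about the level that spleen Treg had with vehicle, and the rise was 3.42-fold (95% interval 3.06 to 3.83, adjusted p = 8.01e-09). Hspa1l, a relative of Hspa1a that starts 547 bases away on the opposite strand, was at 2.32 CPM in lymph node vehicle with 9.66 and 8.16 CPM in SAH, and at 7.95 CPM in spleen vehicle with 26.3 and 26.6 CPM in SAH. It rose 3.02-fold (95% interval 2.63 to 3.48, adjusted p = 4.26e-07). Hspa1a and Hspa1b are near-identical copies and Hspa1l is similar in sequence, so reads may have been split or misplaced among them. The Hspa1l value was 10.8% to 12.9% of the Hspa1a value in every library, and the Hspa1b value 1.2 to 1.28 times it.

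Hsph1, of the HSP110 family that exchanges the nucleotide on HSP70, was at 117 CPM in lymph node vehicle with 143 and 178 CPM in SAH. In spleen it was at 160.1 CPM in vehicle with 238 and 264 CPM in SAH. Each SAH library exceeded the vehicle library of its organ, the lymph node SAH values straddled the spleen vehicle value, and the rise was 1.46-fold (95% interval 1.30 to 1.64, adjusted p = 0.00949). Dnajb1, an HSP40 co-chaperone that delivers clients to HSP70, was at 137 CPM in lymph node vehicle with 154 and 172 CPM in SAH, and at 156 CPM in spleen vehicle with 216 and 239 CPM in SAH. It rose 1.31-fold (95% interval 1.18 to 1.46, adjusted p = 0.0411). The Dnajb1 call was lost without library 02, 03 or 04, and that of Hsph1 without library 04. Both calls were also lost without the intensity trend and with robust estimation.

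Of 19 measured members of the HSP70 family and its exchange factors 4 rose and 0 fell, where 0.135% of all genes rose and 0.0673% fell. The median log2 change was 0.039 over the list against 0.0035 over all genes. The other 15 did not pass, among them the constitutive cytosolic Hspa8 (log2 change 0.12) and the endoplasmic reticulum chaperone Hspa5 (-0.041), both named after their values were seen. Hspa8 was at 1611 CPM in lymph node vehicle with 1624 and 1800.3 CPM in SAH, and at 1645 CPM in spleen vehicle with 1735 and 1922 CPM in SAH. Of 20 HSP40 genes Dnajb1 rose and 19 did not pass, with Dnaja1 at a log2 change of 0.24 (adjusted p = 0.229) and Dnajb5 at 0.23. None of 26 HSP90, HSP60, small heat shock and co-chaperone genes passed, with 20 positive changes (76.9%, against 51.8% of all genes) and a median of 0.054. Cacybp was at 0.20, Stub1 at 0.18 and Hsp90aa1, the inducible HSP90 gene, at 0.17 (adjusted p = 0.407). Among 17 genes of the integrated stress response, which adjusts amino acid supply when translation is slowed, 0 passed and 14 had a positive change (median 0.099). Ddit4, an inhibitor of mTORC1, was at 0.30 (adjusted p = 0.126), Psat1, of serine synthesis, at 0.22, and the amino acid transporter Slc7a5 at 0.20. Of 20 genes of the endoplasmic reticulum unfolded protein response 0 passed, Herpud1 being at 0.22, and of 17 antioxidant genes controlled by NRF2 0 passed, the factor's own gene Nfe2l2 being at 0.27 (adjusted p = 0.49).

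**Figure D1:**
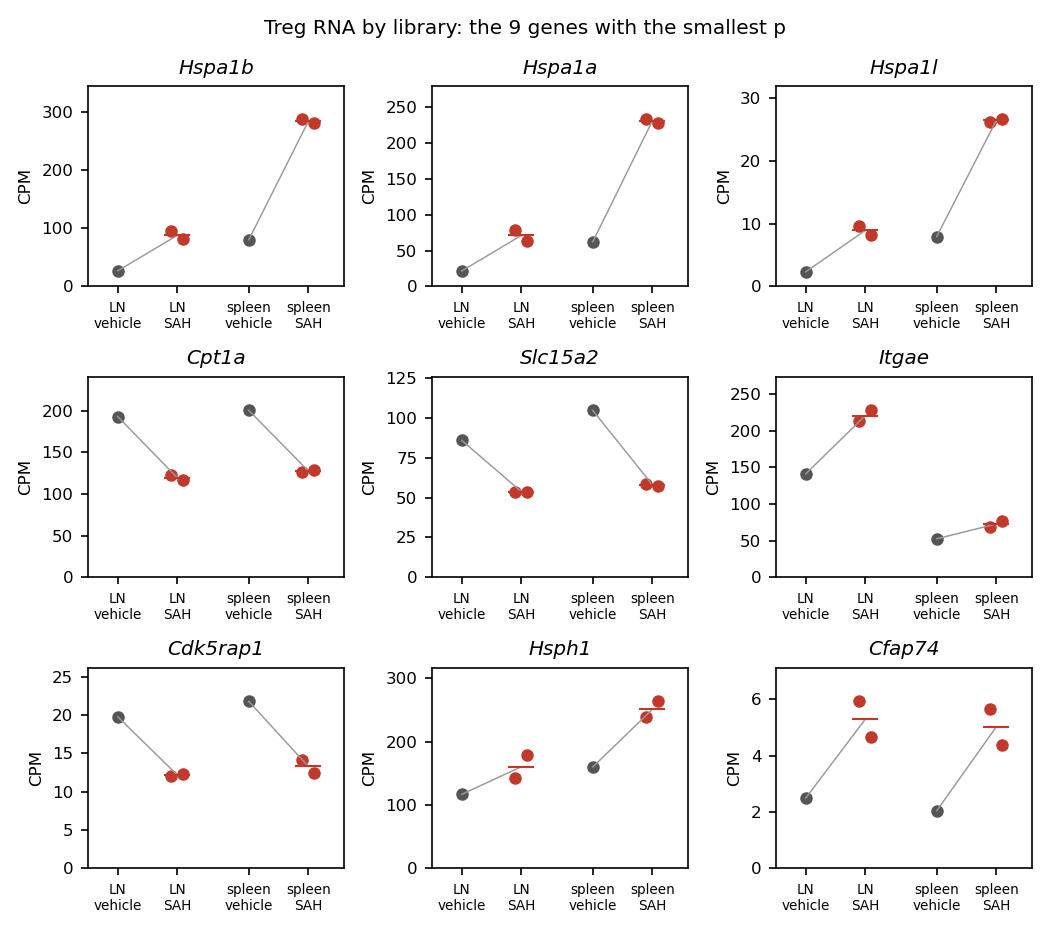
CPM (vertical axis, from 0) of the 9 genes with the smallest p in each Treg library, with vehicle in grey and SAH in red; a red bar is the mean of 2 SAH libraries and a grey line joins it to the vehicle library of its organ. Hspa1a, Hspa1b and Hspa1l rose in both organs from a higher level in spleen, Cpt1a and Slc15a2 fell to similar levels in both, and Itgae rose from a higher level in lymph node.

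Of the 7 lowered genes, 2 act in the entry of fatty acids into mitochondria. Cpt1a (chromosome 19, 3322334 to 3385733) encodes the enzyme that loads long-chain fatty acids onto carnitine, the rate-setting step of their oxidation. It was at 193 CPM in lymph node vehicle with 122 and 117 CPM in SAH, and at 200.3 CPM in spleen vehicle with 127 and 128 CPM in SAH. The 4 SAH libraries lay close together and below both vehicle libraries. Cpt1a fell by 0.67 on the log2 scale (adjusted p = 4.75e-06, 95% interval -0.77 to -0.56), or 1.59-fold. It was the 1 gene that still passed when organ was left out of the model. Slc25a20, the carrier that takes acylcarnitine across the inner mitochondrial membrane, was at 37.5 CPM in lymph node vehicle with 31.0 and 29.2 CPM in SAH, and at 42.6 CPM in spleen vehicle with 30.7 and 32.4 CPM in SAH. It fell by 0.37 on the log2 scale (95% interval -0.51 to -0.22, adjusted p = 0.0411), a call lost without library 01, 02, 03 or 04. Of 28 measured genes of the carnitine shuttle and fatty acid oxidation these 2 fell and 0 rose, where 0.0673% of all genes fell and 0.135% rose. This list too was chosen with earlier results of these data known. The other 26 did not pass, 16 of the 28 had a positive change (57.1%, against 51.8% of all genes), and the list median was 0.031. The acyl-CoA synthetase genes Acsl3 and Acsl1 were at log2 changes of 0.28 and 0.25 (adjusted p = 0.646 and 0.404). A separate list covers PPAR, the nuclear receptors that fatty acids activate, with some of their targets and regulators. It does not hold Cpt1a or Slc25a20, so it does not speak for all PPAR targets. None of its 8 measured genes passed, with Ppargc1b at 0.20 and Pnpla2 at 0.17.

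Other lowered genes were a mixed group. Slc15a2 (chromosome 16, 36750177 to 36784962), a proton-coupled transporter of dipeptides and tripeptides, was at 85.9 CPM in lymph node vehicle with 53.8 and 53.7 CPM in SAH, and at 104.7 CPM in spleen vehicle with 58.7 and 57.4 CPM in SAH. It fell by 0.75 on the log2 scale (95% interval -0.87 to -0.63, adjusted p = 5.93e-06), and the groups did not overlap. Cdk5rap1, which modifies mitochondrial transfer RNAs, was at 19.8 CPM in lymph node vehicle with 12.0 and 12.4 CPM in SAH, and at 21.8 CPM in spleen vehicle with 14.2 and 12.5 CPM in SAH. It fell by 0.67 (95% interval -0.84 to -0.49, adjusted p = 0.00213), with both vehicle libraries above all SAH libraries, and the call was lost without library 01 or 04. Camk2n1, an inhibitor of the kinase CaMKII, was at 9.06 CPM in lymph node vehicle with 5.81 and 5.58 CPM in SAH, and at 11.8 CPM in spleen vehicle with 6.22 and 8.24 CPM in SAH (log2 change -0.62, adjusted p = 0.0422). Selp, the adhesion molecule P-selectin, was at 5.74 CPM in lymph node vehicle with 2.94 and 3.0 CPM in SAH, and at 4.06 CPM in spleen vehicle with 2.22 and 2.28 CPM in SAH. It fell by 0.70 on the log2 scale (adjusted p = 0.0411). Selp is also made by platelets. The 4 of 10 platelet markers measured, Selp among them, summed to 76.8 CPM in lymph node vehicle with 64.8 and 70.9 CPM in SAH. In spleen they summed to 88.9 CPM in vehicle with 76.7 and 89.0 CPM in SAH. Most of each sum was the integrin chain Itgb3, at 64.6 CPM with 54.8 and 61.1 CPM in lymph node and at 77.7 CPM with 67.3 and 77.7 CPM in spleen. Its log2 change was -0.13 (adjusted p = 0.782). Pf4, Ppbp and Gp9 were not listed, and the part of platelets in the Selp change was not tested. Art2b, a surface enzyme of T cells that transfers ADP-ribose from extracellular NAD, was at 31.2 CPM in lymph node vehicle with 23.1 and 22.3 CPM in SAH, and at 56.7 CPM in spleen vehicle with 42.6 and 44.6 CPM in SAH (log2 change -0.41, adjusted p = 0.0150). The organs lie apart in Art2b, so the groups overlapped when organs were pooled. It was the 1 of 13 genes of extracellular nucleotide and NAD metabolism that passed, and has a close relative, Art2a, with which it could share reads. The calls of Art2b, Selp and Camk2n1 were each lost without library 01, 02, 03 or 04.

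Outside the chaperones, 5 of the called rises stand in the list of effector and tissue Treg genes. The list was chosen with earlier results of these data known, so its counts are descriptions and not a test. Treg that have met antigen or entered tissues are known to hold more of the integrin CD103, galectins and S100 proteins than resting Treg. Of its 28 measured genes, 5 rose and 0 fell, where 0.135% of all genes rose and 0.0673% fell. Of the 28, 23 had a positive change (82.1%, against 51.8% of all genes). The list median was 0.15 on the log2 scale (0.20 in lymph node and 0.10 in spleen) against 0.0035 for all genes. Of 20 resting Treg genes, 0 passed, 10 had a positive change and the median was 0.0012.

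Itgae (chromosome 11, 73090583 to 73147446), the CD103 chain that binds E-cadherin on epithelium, was at 141 CPM in lymph node vehicle with 213 and 228 CPM in SAH, and at 52.5 CPM in spleen vehicle with 68.1 and 77.3 CPM in SAH. Both organs rose, from levels so far apart that spleen SAH stayed below lymph node vehicle. The rise was 1.46-fold (95% interval 1.33 to 1.61, adjusted p = 9.18e-04), and the call was lost without library 01. Gsg2, a histone kinase gene also called Haspin, lies inside Itgae on the opposite strand (73135485 to 73138294) and had a log2 change of 0.44 (adjusted p = 0.06). Its value was 13.4% to 21.0% of the Itgae value. The kit marks strand, but no source used here says that the counting used it, so reads of this pair cannot be told apart.

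S100a6, a small calcium-binding protein, was at 23.4 CPM in lymph node vehicle with 34.8 and 34.3 CPM in SAH, and at 55.3 CPM in spleen vehicle with 70.6 and 66.9 CPM in SAH. It rose 1.34-fold (95% interval 1.22 to 1.48, adjusted p = 0.0150). The neighbouring S100a4 was at 32.6 CPM in lymph node vehicle with 45.3 and 47.6 CPM in SAH, and at 68.2 CPM in spleen vehicle with 79.0 and 86.7 CPM in SAH (1.31-fold, adjusted p = 0.0298). In both genes spleen lay above lymph node throughout, and SAH lay above vehicle within each organ. Anxa2, a membrane-binding protein that partners S100 proteins, was at 31.3 CPM in lymph node vehicle with 44.2 and 42.7 CPM in SAH, and at 40.7 CPM in spleen vehicle with 52.2 and 49.4 CPM in SAH (1.31-fold, adjusted p = 0.0209). Lgals1, galectin-1, a sugar-binding protein through which Treg can restrain other T cells, was at 78.5 CPM in lymph node vehicle with 97.5 and 107 CPM in SAH, and at 85.3 CPM in spleen vehicle with 99.02 and 107 CPM in SAH. It rose 1.25-fold (95% interval 1.15 to 1.37, adjusted p = 0.0411), with all 4 SAH libraries above both vehicle libraries. These 4 genes also make up the calls among 17 S100, annexin and galectin genes, of which 15 had a positive change (median 0.12). Calls of S100a6 and S100a4 were lost without library 01, 02 or 03, and those of Anxa2 and Lgals1 without library 01, 02, 03 or 04.

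These 4 genes are also expressed by myeloid cells. The 12 of 24 myeloid and dendritic markers that were measured summed to 343 CPM in lymph node vehicle with 379.8 and 384 CPM in SAH, and to 388 CPM in spleen vehicle with 388 and 436 CPM in SAH. Lyz2, the lysozyme of macrophages and monocytes, was at 1.29 CPM in lymph node vehicle with 1.33 and 0.901 CPM in SAH, and at 21.6 CPM in spleen vehicle with 38.2 and 52.2 CPM in SAH. H2-Aa, a chain of the MHC class II molecule of antigen-presenting cells, was at 0.415 CPM in lymph node vehicle with 1.197 and 1.48 CPM in SAH, and at 10.5 CPM in spleen vehicle with 7.69 and 18.3 CPM in SAH. Cd74, the class II invariant chain, was at 41.3 CPM in lymph node vehicle with 53.7 and 53.2 CPM in SAH, and at 70.3 CPM in spleen vehicle with 56.8 and 75.05 CPM in SAH. Of the 12 markers, 0 passed and 10 had a positive change (83.3%, against 51.8% of all genes). The list median was 0.265 on the log2 scale (0.19 in lymph node and 0.14 in spleen), above the 0.15 of the effector and tissue Treg list. So Lyz2 was higher with SAH in spleen, and H2-Aa and Cd74 were higher in lymph node. The log2 changes of S100a6, S100a4, Anxa2 and Lgals1 were 0.54, 0.50, 0.46 and 0.38 in lymph node and 0.31, 0.28, 0.31 and 0.27 in spleen, and the part of myeloid RNA in them was not tested in either organ. Of the myeloid and dendritic markers, Itgax, Cd14, Adgre1, C1qa, Flt3 and Clec9a were not listed, while Csf1r, Itgam, Cd68, Tyrobp and Mpeg1 were.

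The remaining calls were single members of other groups. Abca1, which exports cholesterol from cells, was at 91.4 CPM in lymph node vehicle with 132 and 123 CPM in SAH, and at 46.7 CPM in spleen vehicle with 59.3 and 54.9 CPM in SAH (1.30-fold, adjusted p = 0.0209). It was the 1 call among 13 measured genes of a list of lipid efflux and of the oxysterol receptors LXR with their targets. In that list Abcg1, the partner transporter, had a log2 change of 0.14 and Abcb1a one of -0.17. Cfap74, a component of cilia and flagella, was at 2.49 CPM in lymph node vehicle with 5.92 and 4.65 CPM in SAH, and at 2.04 CPM in spleen vehicle with 5.65 and 4.39 CPM in SAH, a 1.88-fold rise (95% interval 1.53 to 2.30, adjusted p = 0.0133). H2-Q2, of the class I histocompatibility family, was at 94.1 CPM in lymph node vehicle with 128 and 121 CPM in SAH, and at 117 CPM in spleen vehicle with 134 and 137 CPM in SAH. It rose 1.24-fold (adjusted p = 0.0411), but belongs to a family of similar genes whose reads could be split, and lost its call when libraries were rescaled to equal totals. Ccdc117, a coiled-coil protein gene, was at 81.6 CPM in lymph node vehicle with 97.0 and 111 CPM in SAH, and at 112 CPM in spleen vehicle with 138 and 148 CPM in SAH (1.27-fold, adjusted p = 0.0298). The call of Cfap74 was lost without library 01, 02 or 04, that of Abca1 without 01, 02 or 03, and those of H2-Q2 and Ccdc117 without 01, 02, 03 or 04.

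**Figure D2:**
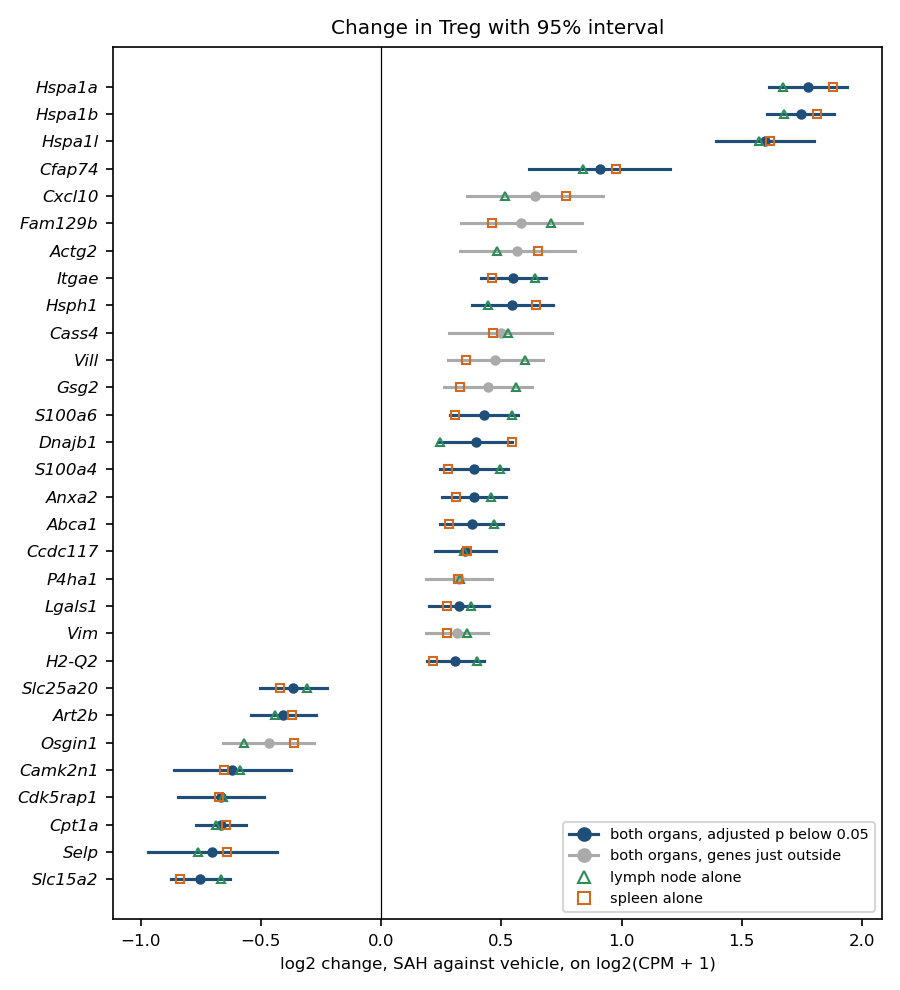
Log2 change of SAH against vehicle in Treg (horizontal axis, log2(CPM + 1) scale) for the 21 called genes (blue) and 9 uncalled genes with the next smallest p (grey); lines are 95% intervals, and open triangles and squares give lymph node and spleen alone. The HSP70 genes stand apart near 1.6 to 1.8, Cfap74 follows at 0.91, and every other called gene lies between -0.75 and 0.55.

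Just outside the threshold, 9 genes with the next smallest p are described, with adjusted p from 0.0532 to 0.0873. Osgin1, an oxidative stress response gene, was at 21.7 CPM in lymph node vehicle with 15.0 and 13.5 CPM in SAH, and at 37.1 CPM in spleen vehicle with 26.2 and 31.3 CPM in SAH (log2 change -0.47). Vim, the intermediate filament vimentin, was at 271 CPM with 326 and 369 CPM in lymph node and at 215 CPM with 249 and 272 CPM in spleen (0.31). Cxcl10, a chemokine that draws CXCR3-bearing cells, was at 13.7 CPM with 20.6 and 19.5 CPM in lymph node and at 18.9 CPM with 41.4 and 26.1 CPM in spleen (0.64, adjusted p = 0.0873). The others were Gsg2, Vill, P4ha1, Actg2, Cass4 and Fam129b, with log2 changes of 0.32 to 0.58. In all 9, the SAH libraries lay on the same side of their organ's vehicle library.

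The authors' deposited table, from a likelihood ratio test, calls 49 genes for the same comparison, 38 higher and 11 lower. All 21 genes called here are among them and in the same direction, which is 42.857% of that table's calls and 100% of the calls here. The 28 genes called only in the authors' deposited table all had the same sign here with an unadjusted p below 0.05. Among them the authors' deposited table gives Idi1, Scd2, Atf3, Il18r1 and Ddit4 as higher at false discovery rates of 0.0379, 0.0300, 0.0391, 0.0310 and 0.0300, and Osgin1 as lower at 4.45e-04.

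RNA of Foxp3 and of the main Treg receptors gave no calls. The labels define these cells by CD25 and FOXP3, so the selection may itself limit how far Foxp3 and Il2ra could differ. Cells that had lost either would not be in the libraries, and this was not tested. Foxp3 (chromosome X, 7573644 to 7595245) was at 682 CPM in lymph node vehicle with 697 and 726 CPM in SAH, and at 669 CPM in spleen vehicle with 655 and 715 CPM in SAH. The groups overlapped, and the log2 change was 0.046 (95% interval -0.073 to 0.17, adjusted p = 0.955). Il2ra, the high-affinity IL-2 receptor chain CD25, was at 763 CPM with 742 and 788 CPM in lymph node and at 589 CPM with 597 and 520.4 CPM in spleen (-0.038, 95% interval -0.17 to 0.096). Ctla4, an inhibitory receptor that removes CD80 and CD86 from other cells, was at 1327 CPM with 1567 and 1676 CPM in lymph node and at 1811 CPM with 1799 and 1676 CPM in spleen (0.11, 95% interval -0.055 to 0.28). In lymph node both SAH libraries lay above vehicle in Ctla4, and in spleen both lay below. Ikzf2, the factor Helios, was at 0.084 (95% interval -0.066 to 0.23), Tnfrsf18, the receptor GITR, at -0.040 (-0.18 to 0.10) and Nrp1, a surface marker of thymic Treg, at 0.035 (-0.086 to 0.16). The bounds of these 6 intervals run from -0.18 to 0.28 on the log2 scale.

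Of 29 measured genes in the list of Foxp3 and Treg identity genes, 1 rose (Itgae) and 0 fell. Among the 29, 16 had a positive change (55.2%, against 51.8% of all genes) and the median was 0.035. Gzmb, the protease granzyme B, was at 3.32 CPM with 6.44 and 8.06 CPM in lymph node and at 6.71 CPM with 8.67 and 7.83 CPM in spleen (log2 change 0.59, adjusted p = 0.194). Lrrc32, which holds TGF-beta on the Treg surface, was at 338 CPM with 420.3 and 437 CPM in lymph node and at 427 CPM with 451 and 479 CPM in spleen (0.23, adjusted p = 0.221). Il10, an inhibitory cytokine, was at 32.6 CPM with 30.4 and 23.5 CPM in lymph node and at 51.5 CPM with 52.1 and 36.8 CPM in spleen (-0.25, adjusted p = 0.705). Its SAH libraries lay on both sides of vehicle in spleen. Of 20 suppressive effector genes Lgals1 alone passed and 16 had a positive change (median 0.073), with Fgl2, a secreted inhibitory protein, at -0.25 (adjusted p = 0.688).

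Among 17 measured genes that FOXP3 is known to repress, 0 passed and the median was 0.0048. A positive change was found in 9 of the 17 (52.9%, against 51.8% of all genes). Pde3b, a phosphodiesterase gene at a log2 change of -0.17, stands in both of these lists. Il7r, the IL-7 receptor, was at 169 CPM with 189 and 209 CPM in lymph node and at 210.3 CPM with 217 and 267 CPM in spleen (0.21, adjusted p = 0.489). Cd40lg, the CD40 ligand of helper cells, was at 0.19 (adjusted p = 0.582), and Bach2, a repressor that keeps T cells quiescent, at -0.17 (adjusted p = 0.42). Ifng, the defining cytokine of Th1 cells, was at 8.53 CPM with 9.14 and 9.86 CPM in lymph node and at 13.5 CPM with 12.2 and 13.96 CPM in spleen (0.045, 95% interval -0.16 to 0.25). None of 18 measured helper lineage regulators and cytokines passed, and 9 had a positive change. Of 36 partner factors of FOXP3, 0 passed, 15 had a positive change and the median was -0.013. The ubiquitin ligase gene Stub1, whose product marks FOXP3 for degradation, was at 0.18 (adjusted p = 0.646), and Ikzf4, the factor Eos, at -0.16 (adjusted p = 0.582).

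Lists of T cell receptor and cytokine genes come next. Over all genes 0.202% were called and 51.8% had a positive change. The counts here and in the lists below stand beside those shares, and 0 calls in a list is near them. Of 35 receptor response genes, 0 passed and 21 had a positive change (median 0.032). Atf3, a stress-responsive member of the AP-1 family, was at 9.09 CPM with 14.6 and 15.0 CPM in lymph node and at 36.7 CPM with 43.9 and 39.7 CPM in spleen (0.41, adjusted p = 0.162). Klf6, a zinc finger factor, had a log2 change of 0.30, Fosl2 one of 0.29 and Jund one of 0.25 (adjusted p = 0.37, 0.347 and 0.316). Camk2n1 was the 1 call among 33 genes of the receptor complex and its proximal signals, where Trat1, an adaptor of the receptor, was at 0.19. None of 26 NF-kB pathway genes passed and 8 had a positive change (median -0.022), with Nfkb2 at -0.092. None of 37 cytokine receptor and feedback genes passed, 25 being positive. Il18r1, a receptor chain for the alarmin IL-18, was at 71.0 CPM with 79.3 and 93.7 CPM in lymph node and at 63.7 CPM with 76.8 and 78.3 CPM in spleen (0.28, adjusted p = 0.156). Il1r2, a decoy receptor for IL-1, was at 0.47 (adjusted p = 0.462) and Socs1, a feedback inhibitor, at 0.26 (adjusted p = 0.651). Of 30 costimulatory and inhibitory receptors 0 passed, with Slamf1 at 0.17 and Cd28 at 0.15.

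Of 31 measured trafficking receptors, Itgae rose, Selp fell and 29 did not pass. Cxcr4, the receptor for CXCL12, was at 230.4 CPM with 287 and 318 CPM in lymph node and at 313 CPM with 327 and 366 CPM in spleen (0.27, adjusted p = 0.235). Ccr7, which guides cells into lymph nodes, was at 207 CPM with 279 and 344 CPM in lymph node and at 284 CPM with 224 and 287 CPM in spleen (0.21, adjusted p = 0.868). In lymph node SAH lay above vehicle in Ccr7, and in spleen its 2 values lay on either side. Klf2, a factor of resting cells that sustains exit receptors, had a log2 change of 0.30 (adjusted p = 0.221), and Itgb1 one of 0.24 (adjusted p = 0.289).

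Lipid synthesis genes had small positive changes that did not pass. Among 24 cholesterol synthesis genes, 0 passed, 20 had a positive change and the median was 0.13 (0.072 in lymph node and 0.18 in spleen). Idi1, of the isoprenoid steps, was at 15.8 CPM with 20.1 and 21.1 CPM in lymph node and at 25.8 CPM with 30.6 and 32.6 CPM in spleen (0.32, adjusted p = 0.126). Fdps, the next enzyme of the route, was at 0.31 (adjusted p = 0.417), and Lss, which closes the sterol ring, at 0.26. Of 10 fatty acid synthesis genes 0 passed and 9 were positive, with the desaturase Scd2 at 0.25 (adjusted p = 0.201) and the synthase Fasn at 0.19 (adjusted p = 0.272). Srebf1, which encodes a factor that drives these genes, was at 0.17 (adjusted p = 0.491).

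Carbon and energy genes also held 0 calls, where 0.202% of all genes were called. Of 19 glycolysis and glucose uptake genes 0 passed and 15 were positive (median 0.074), with the glucose transporter Slc2a1 at 0.21 (adjusted p = 0.31) and the lactate transporter Slc16a1 at 0.20. Positive changes were found for all 13 genes of the mitochondrial genome (median 0.11, 0.050 in lymph node and 0.17 in spleen), and 0 passed. These 13 come from 1 shared precursor on each strand of 1 genome and are not independent. mt-Co2 was at 3329.6 CPM with 3455 and 3536 CPM in lymph node and at 3255 CPM with 3881 and 3581 CPM in spleen (0.13, adjusted p = 0.845). None of 31 nuclear respiratory chain genes, 61 cytosolic ribosomal proteins and 33 proteasome subunits passed, with medians of 0.013, 0.0058 and -0.0033.

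Cell cycle genes had a median log2 change of 0.11 (0.15 in lymph node and 0.031 in spleen). Of 43 such genes 0 passed and 38 were positive (88.4%, against 51.8% of all genes). Mki67, a marker of dividing cells, was at 111 CPM with 130.3 and 144 CPM in lymph node and at 120.5 CPM with 126 and 147 CPM in spleen (0.24, adjusted p = 0.347). Rrm2, which supplies deoxynucleotides, was at 0.29 (adjusted p = 0.45). Of 33 apoptosis and p53 genes 0 passed, with Pmaip1, the death activator NOXA, at 0.33 (0.59 in lymph node and 0.066 in spleen, adjusted p = 0.37) and Bbc3, the death activator PUMA, at 0.28 (adjusted p = 0.417). Of 36 interferon-stimulated genes 0 passed and 29 were positive (median 0.049), with Oas1a, a sensor of double-stranded RNA, at 0.42 (adjusted p = 0.417) and Oasl1 at 0.38 (adjusted p = 0.459). The GIMAP family, GTPases that sustain lymphocyte survival, had the lowest median of the 35 lists plotted here, -0.050, with 1 of 8 members positive and 0 passing. Gimap7 was at 63.0 CPM with 52.5 and 40.4 CPM in lymph node and at 119.8 CPM with 104.1 and 90.3 CPM in spleen (-0.37, adjusted p = 0.175). Gimap8 and Gimap4 were at -0.15 and -0.14, and Gimap9 at 0.13.

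**Figure D3:**
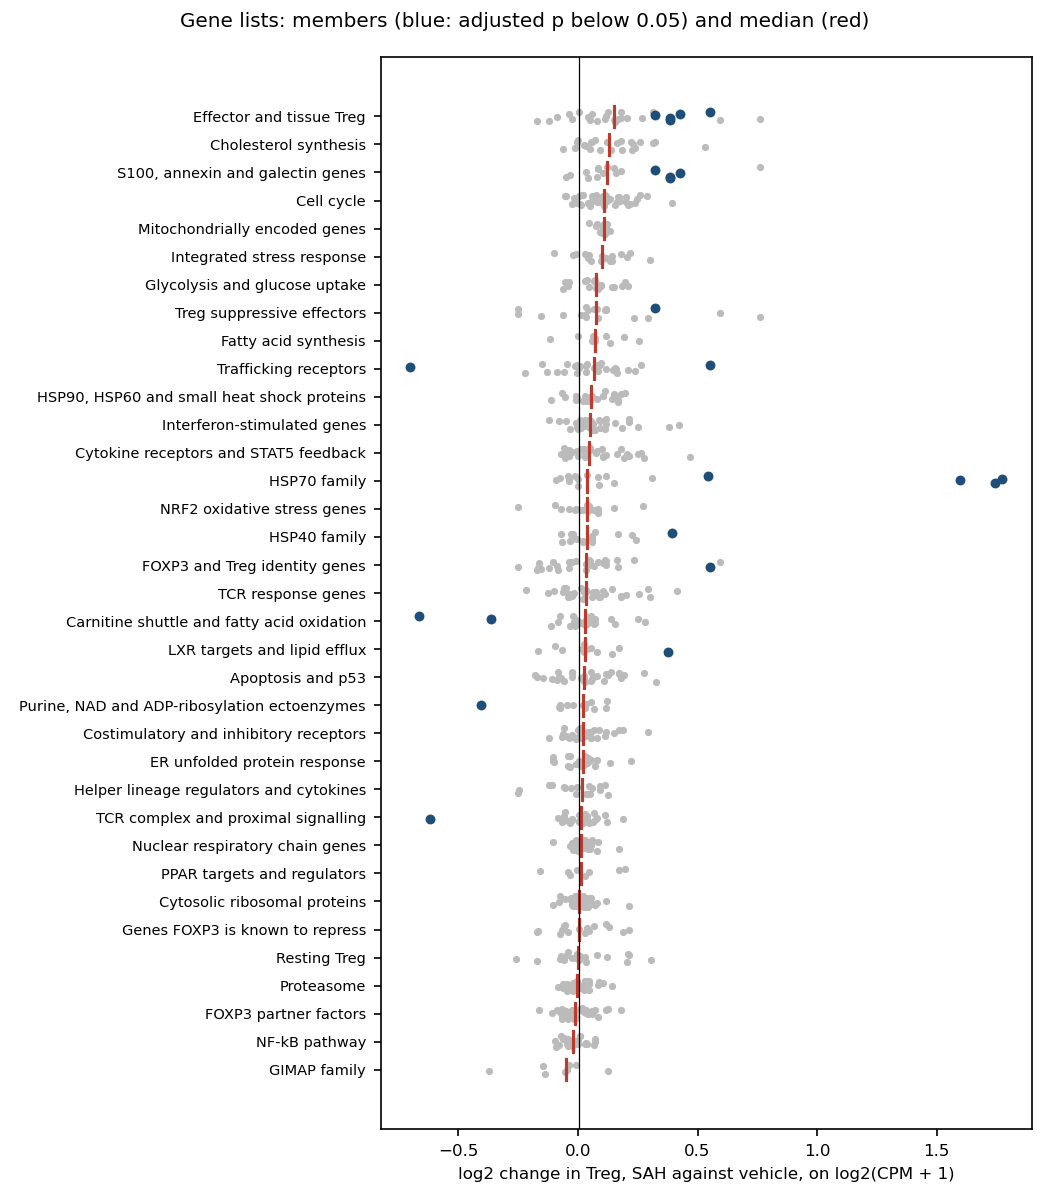
Log2 change of SAH against vehicle in Treg (horizontal axis, log2(CPM + 1) scale) for every measured member of 35 gene lists, 1 row a list, ordered by median; blue points passed the test, grey points did not, red bars are medians and the black line is the median of all genes. Among these 35 lists, effector and tissue Treg genes have the highest median, 0.15, and the GIMAP family the lowest, -0.050. The points farthest to the right are 3 HSP70 genes. Marker lists of other cell types are not plotted, and that of myeloid and dendritic cells had a median of 0.265. The lists were chosen with earlier results of these data known.

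The SAH effect could be compared between organs. Of 10405 genes, 1 passed a test of the difference (0.00961%): Mrpl33, a protein of the mitochondrial ribosome, at 18.6 CPM with 12.2 and 11.1 CPM in lymph node and at 12.7 CPM with 21.5 and 20.8 CPM in spleen. It was lower with SAH in lymph node and higher in spleen, and the effect in spleen minus that in lymph node was 1.32 on the log2 scale (95% interval 0.95 to 1.69, adjusted p = 0.0143). That call was lost without library 02 (adjusted p = 0.482) or 03 (adjusted p = 0.987). Among the 21 genes called over both organs, 11 had the larger change in spleen and 10 in lymph node. Dnajb1 alone of these had an unadjusted p below 0.05 for the difference (log2 0.30, 95% interval 0.028 to 0.57, unadjusted p = 0.0327, adjusted p = 0.9998). Its change was 0.24 in lymph node and 0.54 in spleen. Hspa1a changed by 1.67 in lymph node and 1.88 in spleen (difference 0.21, 95% interval -0.11 to 0.52), and Cpt1a by -0.69 and -0.65 (difference 0.041, 95% interval -0.19 to 0.28). Itgae, S100a6, S100a4, Anxa2, Lgals1 and Abca1 had point estimates that were larger in lymph node, with unadjusted p of 0.089 to 0.417 for the difference.

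Organ separated more genes than SAH did: 1531 genes (14.7%) differed between spleen and lymph node Treg, and 14 of the 21 SAH genes were among them. Hspa1a and Hspa1b were higher in spleen by 1.63 and 1.64 on the log2 scale (adjusted p = 2.98e-09 and 7.12e-10), close to the size of the SAH effect. S100a6 and Art2b were higher in spleen by 1.05 and 0.89, and Itgae and Abca1 lower by 1.53 and 1.08 (log2 differences -1.53 and -1.08). Cpt1a, Cdk5rap1, Slc25a20 and Lgals1 differed between organs by at most 0.12 and did not pass.

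**Figure D4:**
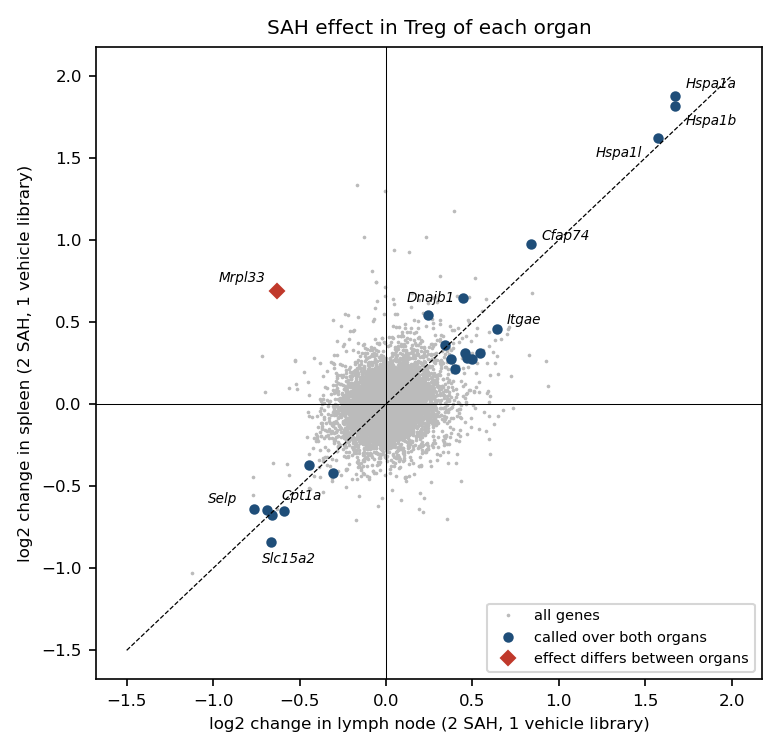
Log2 change with SAH in lymph node (horizontal) and in spleen (vertical), each from 2 SAH libraries and 1 vehicle library, for all genes (grey), the 21 called genes (blue) and the gene whose effect differed between organs (red); the dashed line marks equal change. The called genes lie along that line, from -0.84 to 1.88, and Mrpl33 lies apart at -0.63 in lymph node and 0.69 in spleen.

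Tcon of the same treatments allow a comparison of the SAH effect between cell types. In Tcon 103 of 9886 genes were called (1.04%). Of the 21 genes called in Treg, 18 are in the Tcon table (Itgae, Selp and Camk2n1 are not), 15 of these had the same sign of change and 11 were called in Tcon. With no term for library number, a test of the difference between the effects called 0 of 9784 genes (0%) by limma, and 453 had an unadjusted p below 0.05. With the number as a replicate block, 76 genes were called, 14 with a higher and 62 with a lower change in Treg. So the count depended on the model. The labels do not tie numbers to mice, and the values below are of the fit without the number. The smallest adjusted p, 0.0615, was that of Gsg2, at 0.44 in Treg and -0.42 in Tcon (difference 0.87, 95% interval 0.60 to 1.14). Its reads cannot be told apart from those of Itgae, which is not in the Tcon table. For Hspa1a the log2 change was 1.77 in Treg against 2.40 in Tcon (difference -0.62, 95% interval -1.24 to -0.0090, unadjusted p = 0.0472). Cpt1a had changes of -0.67 and -0.68 (difference 0.014, 95% interval -0.14 to 0.17), and Slc15a2 -0.75 and -0.70 (difference -0.051, 95% interval -0.28 to 0.18). The S100 and galectin genes were not called in Tcon: S100a6 was at -0.20, S100a4 at -0.011, Anxa2 at 0.14 and Lgals1 at 0.016. The differences from Treg were 0.63 for S100a6 (95% interval 0.067 to 1.18, unadjusted p = 0.0307) and 0.31 for Lgals1 (0.018 to 0.60, unadjusted p = 0.0390), with an adjusted p of 0.9999 each. H2-Q2 was at -0.0026 in Tcon and differed by 0.31 (0.12 to 0.50, unadjusted p = 0.00401, adjusted p = 0.658).

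**Figure D5:**
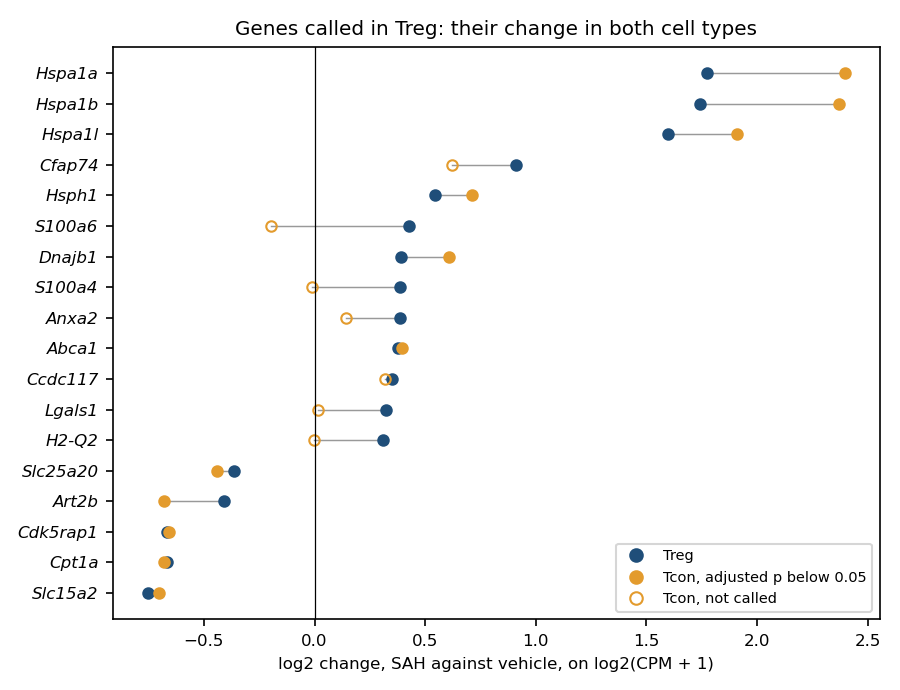
Log2 change of SAH against vehicle in Treg (blue) and in Tcon (orange, filled where called in Tcon) for the 18 genes called in Treg that are in both tables; a grey line joins the values of a gene. Chaperone genes changed more in Tcon by point estimate, Cpt1a, Slc15a2 and Cdk5rap1 by nearly the same amount, and S100a6, S100a4, Lgals1 and H2-Q2 lie near or below 0 in Tcon.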

How the data were processed

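RNA was sequenced from 12 libraries, 6 of them Treg, made with a stranded mRNA kit per the labels' protocols. The submitters' processing notes name TopHat, Bowtie, edgeR and mm10, without versions, while the counting program is not given in the sources used here. For each cell type the authors deposited a table of normalized signal, named CPM in the file headers. Column totals ran from 981530 to 1017869 in Treg, so libraries had also been scaled. The deposited log2 values (fold change and mean CPM), scores (likelihood ratio and call) and p-values with false discovery rates are the authors', per the file headers, and are used only where named. Low values were whole multiples of 1 read (100% within 0.1 of a whole read), worth 0.0218 to 0.0250 CPM, which gave the depth.

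Values were analysed as log2(CPM + 1) in R 4.3.3 with limma 3.58.1 (empirical Bayes, intensity trend, two-sided test), with organ as a term and 3 residual degrees of freedom (2 for the organ interaction). The difference from Tcon was fitted over all 12 libraries. The p-values of limma were adjusted by Benjamini-Hochberg across every gene tested, and genes below 0.05 are called. Genes needed 1 CPM in 2 libraries, which removed 0. Folds refer to CPM + 1 and so understate changes of low genes. Intervals are 95% intervals of the model. The code was tested on simulated data.

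Named genes are every call (up to 40), the 10 uncalled genes with the smallest p (1 is not reported here), called members of each list with up to 4 others of largest change at a mean of 5 CPM or more, and 8 fixed Treg genes. The gene lists, tests and this rule were chosen with earlier results of these data known. Coordinates are from GENCODE for mm10 (95.9% of symbols matched). Of the symbols, 284 share all values with another symbol and were kept, and 13 that look like dates were never named. The 2 SAH libraries of an organ differed beyond counting noise (chi-square divided by its degrees of freedom, 9.16 and 20.9). Alternatives were other pseudocounts, filters and scalings, limma settings, single organs, each library left out and a replicate block. Count tests were not run.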

Additional observations from a re-analysis of the deposited data

Results flagged for a closer look

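Mrpl33 had an SAH effect that differed between organs by a test of the difference, spleen minus lymph node 1.32 on the log2 scale (adjusted p = 0.0143, limma). All SAH libraries of lymph node were below their vehicle library and all SAH libraries of spleen above theirs. The call was lost without library 02 (adjusted p = 0.482), without library 03 (adjusted p = 0.987) and without the intensity trend (adjusted p = 0.35). Each organ has 1 vehicle library, so this difference rests on 2 single libraries. In Tcon the log2 change of Mrpl33 over both organs was 0.15 (adjusted p = 0.727).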

How the results depend on the processing

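The 21 calls became 20 to 29 under both other pseudocounts, equal totals, median ratio scaling, robust estimation and 1 symbol a gene, and 19 at a mean of 5 CPM or more. They fell to 7 without the intensity trend, to 7 with a spread shared with Tcon, to 7 in spleen alone and to 1 without the organ term, and leaving out 1 library gave 7 to 95. The single organ difference became 2 with log2(CPM + 0.1), a mean of 5 CPM, median ratio, robust estimation and 1 symbol a gene, 0 without the trend, and 0 to 94 when a SAH library was left out. It could not be fitted without library 01 or 04. The 0 differences from Tcon became 3 with log2(CPM + 5), 1 without the trend and 4 with robust estimation, and 0 to 7 when 1 library was left out (7 without Tcon library 02).

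Numbers 01 to 06 are each shared by a Treg and a Tcon library. Deviations of same-numbered SAH libraries correlated at 0.438 in lymph node and 0.556 in spleen, over only 2 independent pairs, so the libraries are taken to share a number only. With the number as a replicate block, 76 genes differed in effect between Treg and Tcon, 14 with a higher and 62 with a lower change in Treg, and the cause was not tested.

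Among the genes named, Ctla4 reversed to -0.060 and Ccr7 to -0.16 without library 01 (spleen alone), Lyz2 to -0.13 and Slc4a1 to -0.0054 without library 04 (lymph node alone), and Slc4a1 to -0.21 without library 06. Over all libraries left out, their log2 changes ran from -0.060 to 0.288, -0.16 to 0.579, -0.13 to 1.015 and -0.21 to 1.31. Tnfrsf18 (-0.18 to 0.098), Ifng (-0.050 to 0.14), Nrp1 (-0.011 to 0.081), Il2ra, Mrpl33 (-0.63 to 0.69) and Alas2 (to -0.25 without library 06), whose changes lay within their standard errors, also changed sign. The cause was not tested. Count tests (edgeR and DESeq2) were not run, since the deposited values are not counts. Depth sets a floor of 3 reads at 0.0653 to 0.0751 CPM, under which a level cannot be told from 0.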

Other observations

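A few genes, chosen after their values were seen, separated libraries 02 and 05 or 03 and 06 from the rest in both cell types. Capn11, a calpain protease, was at 0.0435 CPM and 0.0715 CPM in Treg libraries 02 and 05, at or below 3 reads, and at 3.74 to 4.02 CPM in the other 4. In Tcon it was at 0.0237 CPM and 0.0512 CPM in libraries 02 and 05 and at 2.29 to 2.99 CPM in the other 4. Zfp69, a zinc finger gene, was at 5.78 CPM and 6.64 CPM in Treg libraries 03 and 06 and at 1.81 to 2.70 CPM in the others, and at 5.26 CPM and 6.29 CPM against 1.68 to 2.56 CPM in Tcon. Eps8l1 was lowest in the same libraries, at 17.1 CPM and 20.2 CPM in Treg against 28.5 to 38.4 CPM. Across 10405 Treg genes, the difference of library 02 from 03 correlated with that of 05 from 06 at r = 0.205, and across 9886 Tcon genes at r = 0.336, with genes not being independent. The labels do not say which libraries came from 1 mouse. Whether numbers 01 and 04 (both vehicle), 02 and 05, or 03 and 06 did was not tested. If they did, the Treg libraries hold fewer animals than libraries, and vehicle would be 1 mouse. The organs would then not be independent, and the p-values above are too small.

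Capn11 was also the 1 uncalled gene with a change over 2-fold in Treg, being near 0 in 2 of 4 SAH libraries and at the vehicle level in the other 2. In library 06, further red cell genes stood apart with Slc4a1 and Alas2: Ca2 was at 38.2 CPM against 7.95 CPM and 7.38 CPM in the other spleen libraries, and Aqp1 at 29.1 CPM against 3.55 CPM and 3.38 CPM. In Tcon library 06 Slc4a1 was at 50 CPM against 4.21 CPM and 3.38 CPM in the other spleen libraries. Lgals3, galectin-3, below the mean level for naming, was at 1.34 CPM with 3.44 and 2.98 CPM in lymph node and at 4.03 CPM with 5.45 and 9.07 CPM in spleen, a log2 change of 0.76 in Treg that did not pass (adjusted p = 0.103).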
